A study of Homo sapiens with 2 samples.

Results

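Human precursor microRNAs numbered hsa-mir-4251 to hsa-mir-4330 were examined in small RNA sequencing of hCMEC/D3 cells, which are immortalised endothelial cells from human brain microvessels and are used to model the blood-brain barrier. Every row of the deposited table whose precursor name carries a number in that range was taken, with any suffix. This gave 82 of 2363 rows, with 80 of 2042 mature miRNA names and 82 of 1600 precursor names. The data came from 2 libraries, numbered replicate 2 and replicate 8 in the labels, both of the same line with no treatment, time point or genetic change named, and there was no second group. The labels do not say whether the replicates were separate cultures, and a single established line stands for one genetic background. The question put to the data is therefore which of these miRNAs were found, at what level, and how closely the libraries matched.

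A miRNA is a short RNA cut by Dicer from a hairpin precursor and loaded into an Argonaute protein, where bases 2 to 8, the seed, pair with target messages. Hairpins receive numbers roughly in the order in which they are registered, so a run of numbers reflects a common origin of discovery and not a family. This run was first reported largely from small RNAs bound to Argonaute in human embryonic stem cells and neural precursors. 

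The table held 1 mature name for each of the 82 precursors, and none of these names had an arm suffix (5p or 3p), whereas 1189 of the 2042 names of the table did. For miR-4283 and miR-4315, 2 hairpins each were listed under 1 name. Mature sequences were matched by name to RefSeq (GRCh38.p14) for 73 of the 80 names. The 6 members that had any count and a matched sequence are shown first, since all counts outside the leading pair belong to them. Capitals mark the seed.
hsa-miR-4284: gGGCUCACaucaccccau
hsa-miR-4301: uCCCACUAcuucacuuguga
hsa-miR-4306: uGGAGAGAaaggcagua
hsa-miR-4315: cCGCUUUCugagcuggac
hsa-miR-4289: gCAUUGUGcagggcuauca
hsa-miR-4277: gCAGUUCUgagcacaguacac
These seeds all differ from each other. All results on sequence, length and genome matches cover the 73 matched names, which do not include the leading pair, miR-4326 and miR-4286. That pair is described by its values.

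Most of the set had no count at this depth. With 1 row kept for each mature name, the libraries held 2721287 counts (replicate 2) and 2727675 counts (replicate 8), and levels are given in CPM, counts scaled to these totals. Only miR-4326 and miR-4286 reached 10 counts in both libraries, which is 2 of 82 rows, against 26.4% of all rows of the table. By mature name it was 2 of 80, or 2.5%, against 26.6% of all names. The count was 0 in replicate 2 and in replicate 8 for 72 of the 80 names (90%), against 44.5% of all names. A 0 allows up to 3 counts, or 1.10 CPM, in either library, so levels under this limit could have been missed for these names. The remaining 6 names had between 1 and 15 counts over both libraries.

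As a check of the label, the endothelial miRNA miR-126-3p had 297696 and 313837 counts in replicates 2 and 8. Of 8 listed miRNAs of pluripotent stem cells, 4 were at 0 in both libraries and 1, miR-372, reached 10 counts in both, and the list summed to 14 and 22 counts. Of the 4 neuronal and glial miRNAs, miR-124-3p had 3 and 1 counts and miR-219-5p 2 and 1. The other 2 reached 10 counts in both libraries, miR-9-5p with 117 and 92 and miR-137 with 53 and 50, and the list summed to 175 and 144 counts. Of the 4 blood miRNAs 3 were at 0, and miR-451a had 43 and 19 counts.

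**Figure D1:**
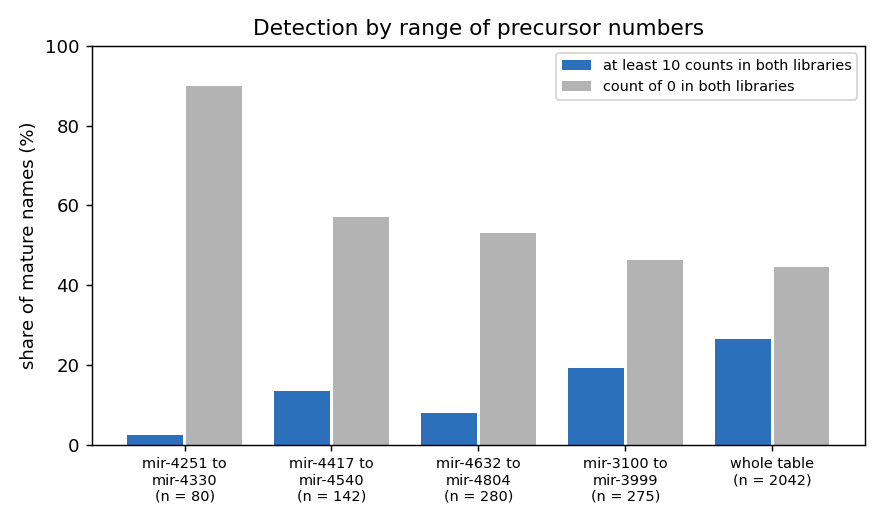
Share of mature names (y axis, percent) with at least 10 counts in both libraries (blue) and with a count of 0 in both (grey), for the precursors from hsa-mir-4251 to hsa-mir-4330, 3 other number ranges and the whole table (x axis, with the number of names). The first range has the lowest blue bar, 2.5%, and the highest grey bar, 90%.

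Other ranges of late numbers were set beside it as a description, with no test of the difference. Of 142 names from hsa-mir-4417 to hsa-mir-4540, 13.4% reached 10 counts in both libraries and 57% were at 0 in both. Of 280 names from hsa-mir-4632 to hsa-mir-4804, 7.86% were detected and 53.2% were at 0. Of 275 names from hsa-mir-3100 to hsa-mir-3999, 19.3% were detected and 46.2% were at 0. The range that starts at hsa-mir-4251 lay below the other 3 in detection and above them in zeros.

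In sum the members took 1020 counts in replicate 2 and 1033 in replicate 8. The corresponding levels were 375 CPM (95% Wilson interval 353 to 399) and 379 CPM (356 to 403), a mean of 377 ± 2.75 CPM (SD, n = 2), or 0.0377% of all counts. The intervals overlapped almost entirely. Intervals and limits cover counting error only, because the labels mention no molecular identifiers and PCR copies are counted as reads. The leading pair held 98.3% of the members' counts in replicate 2 and 98.7% in replicate 8, which left 17 and 13 counts for the other 78 names.

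The most abundant member was miR-4326, which had 765 reads counted in replicate 2 and 730 in replicate 8. Its level in replicate 2 was 281 CPM (95% Wilson interval 262 to 302). In replicate 8 it was 268 CPM (249 to 288), giving a mean of 274 ± 9.54 CPM (SD, n = 2). The libraries overlapped within counting error. This placed it at rank 149 of the 2042 names by mean CPM, between miR-101-3p at 277 ± 49.8 CPM and miR-503-5p at 271 ± 1.23 CPM (SD, n = 2), neighbours whose means lay within the SD of miR-4326. It held 75% of the members' counts (95% Wilson interval 72.3 to 77.6) in replicate 2. For replicate 8 the share was 70.7% (67.8 to 73.4), and the mean 72.8% ± 3.06 (SD, n = 2). The hairpin gene MIR4326 is on the plus strand of chromosome 20, from 61918160 to 61918218 (GRCh37), in ARFGAP1, which encodes a GTPase-activating protein for the Golgi regulator ARF1. It is intronic on the same strand, with no exon of the 13 spanning ARFGAP1 transcripts at that position.

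The only other detected member, miR-4286, was counted 238 times in replicate 2 and 290 times in replicate 8. In CPM the level was 87.5 for replicate 2 (95% Wilson interval 77.0 to 99.3). For replicate 8 it was 106 CPM (94.8 to 119), and the mean was 96.9 ± 13.3 CPM (SD, n = 2). Replicate 8 was the higher, with intervals that overlapped. Its rank was 212 of 2042, next to miR-493-3p at 98.3 ± 24.2 CPM and miR-1285-3p at 94.7 ± 8.15 CPM (SD, n = 2), whose means lay within the SD of miR-4286. The ratio of miR-4286 to miR-4326 counts was 0.311 in replicate 2 and 0.397 in replicate 8, so miR-4326 was the more abundant in both libraries. Ligation efficiency can differ between RNAs, and its part in this order was not tested. MIR4286 is on the plus strand of chromosome 8, from 10524488 to 10524580 (GRCh37), opposite an intron of RP1L1, a photoreceptor gene transcribed from the other strand.

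**Figure D2:**
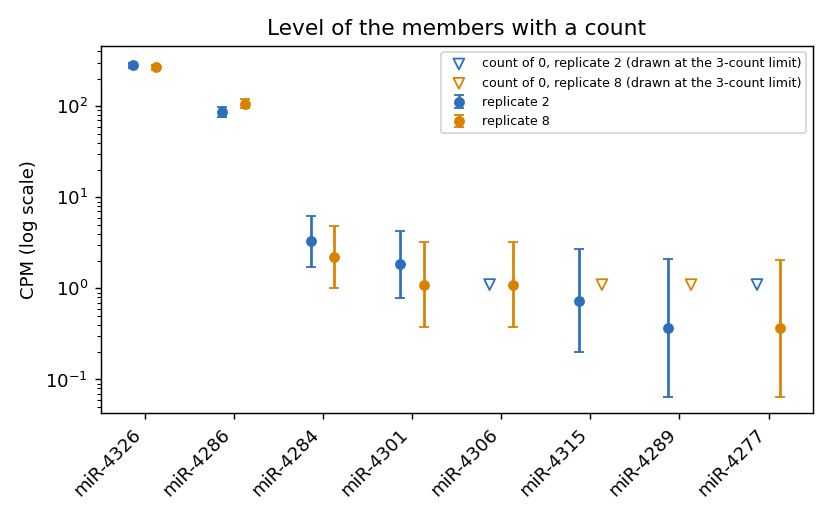
CPM (y axis, log scale) of the 8 members with any count (x axis) in replicate 2 (blue) and replicate 8 (orange), where points are levels, bars are 95% Wilson intervals and open triangles mark a count of 0 drawn at the 3-count limit. The leading pair stands at 274 and 96.9 CPM on average, and no other member exceeded 3.31 CPM in either library.

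Just under the detection threshold was miR-4284, with 9 counts in replicate 2 and 6 in replicate 8, or 3.31 CPM (95% Wilson interval 1.74 to 6.29) and 2.20 CPM (1.01 to 4.80). It was present in both libraries with overlapping intervals. The table gave the same pair of counts to 1 other name, miR-4660. Such ties were not particular to miR-4284: miR-4301 and miR-320e both had 5 and 3 counts. MIR4284 is on the plus strand of chromosome 7, from 73125647 to 73125727 (GRCh37), opposite an intron of the syntaxin gene STX1A. Its 18-base mature sequence, printed above, also occurs exactly at 2 other places in GRCh37. One is on the mitochondrial chromosome at 625 to 642 (plus strand), inside MT-TF, the gene of the mitochondrial phenylalanine transfer RNA. The remaining one is on chromosome 2 at 149639395 to 149639412 (minus strand), inside KIF5C-AS1. Reads from the transfer RNA and from the hairpin cannot be told apart over these 18 bases, and their part in the 15 counts was not tested.

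The next member, miR-4301, had 5 and 3 counts, and its mean level was 1.47 ± 0.522 CPM (SD, n = 2). Its hairpin is on the minus strand of chromosome 11, from 113320745 to 113320810 (GRCh37), in an intron of DRD2, the dopamine D2 receptor gene, and its mature sequence has 1 exact match in the genome. The remaining members had counts in 1 library only. For miR-4306 there were 0 and 3 counts, for miR-4315 2 and 0, for miR-4289 1 and 0, and for miR-4277 0 and 1. These are levels at or under the 3-count limit, at which the libraries cannot be said to differ. Both hairpins of miR-4315 were listed with the same 2 counts, and its mature sequence occurs on chromosome 17 at 43552774 to 43552791 in PLEKHM1 and at 62818193 to 62818210 in its pseudogene PLEKHM1P1 (both minus strand, GRCh37).

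Replicate agreement could be examined for the 3 members with at least 10 counts over both libraries. For each of the 695 names of the table at that level, a two-sided exact binomial test asked whether its counts split between the libraries as the total counts do. P-values were adjusted by Benjamini-Hochberg over all 695. It compares a pair of libraries, not conditions, and its p-values hold counting error only, with reads taken as independent. Of the 695 names, 34.2% had an adjusted p under 0.05, and of the 3 members none did by this exact binomial test. At an unadjusted p under 0.05 it was 1 member, miR-4286, against 40.3% of the 695 names. With library sizes scaled by TMM (edgeR) or by DESeq2 size factors 1 member passed, again miR-4286.

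For miR-4326 the log2 ratio of replicate 8 over replicate 2 was -0.07 (95% exact interval -0.22 to 0.08, exact binomial adjusted p = 0.527). Its sign depended on the scaling, and the value was 0.03 with sizes from either TMM or DESeq2. Over the 695 names the median log2 ratio was -0.11 with total counts, and both other scalings raise every ratio by 0.10. For miR-4286 the log2 ratio was 0.28 (0.03 to 0.54, exact binomial adjusted p = 0.0718). It was 0.38 with TMM sizes (exact binomial adjusted p = 0.0105) and 0.38 with DESeq2 size factors (exact binomial adjusted p = 0.00906), so the call for miR-4286 changes with the scaling. It also changes with the filter: with total counts and only names of at least 100 summed counts tested, its exact binomial adjusted p was 0.0459. For miR-4284 the log2 ratio was -0.55 (-2.36 to 1.07, exact binomial adjusted p = 0.624), an interval too wide to tell a difference in either direction. With total counts, the median absolute log2 ratio of the 3 members was 0.28, the value of miR-4286, against 0.33 over the 695 names. The median of the 3 members was 0.38 with TMM sizes or DESeq2 size factors. For the leading pair alone, with total counts, it was 0.18, against 0.25 over the names with 100 to 10000 counts, a band that holds both. With so few members, no difference in agreement is read from these medians.

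**Figure D3:**
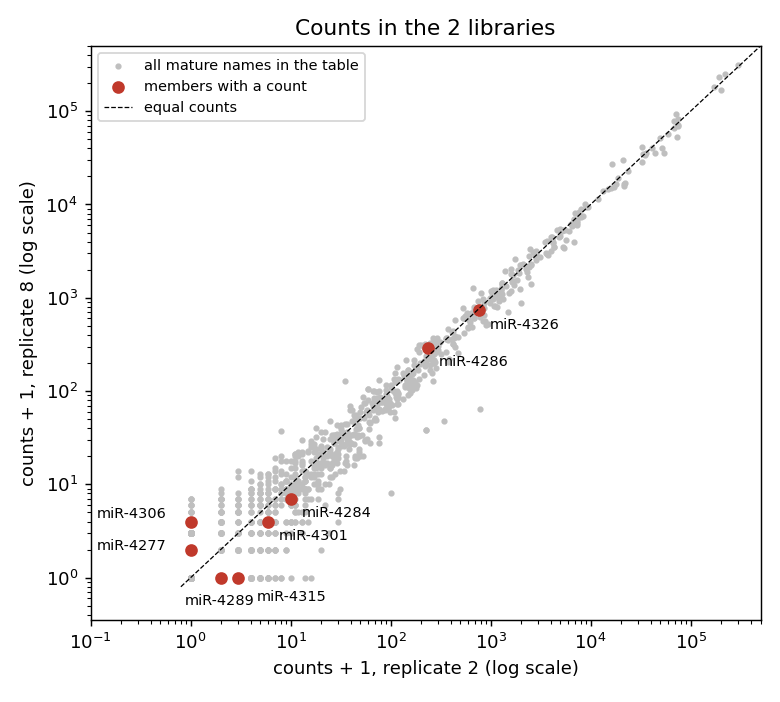
Counts plus 1 in replicate 2 (x axis) and replicate 8 (y axis), both on log scales, for all mature names (grey) and for the 8 members with a count (red, named); the dashed line marks equal counts. The points of miR-4326 (765 and 730 counts) and miR-4286 (238 and 290) lie close to the line among the other names, and the remaining 6 members lie in the corner of low counts.

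The mature sequences of the set are short. Over the 73 matched names the median length was 18 bases (range 16 to 23), against 22 bases over the 1643 other matched names. At most 18 bases were found in 49 of the 73 (67.1%), against 4.08% of the other names, and 21 bases or more in 9. Their median GC content was 58.8%, against 50% of the other names. Over all names outside the set, 13.4% of the 67 with at most 18 bases reached 10 counts in both libraries, against 27% of the 1576 longer ones. The other number ranges did not follow this order. From hsa-mir-4417 to hsa-mir-4540, 26.4% of matched names had at most 18 bases and 13.4% of names were detected. The values were 1.6% and 7.86% from hsa-mir-4632 to hsa-mir-4804, and 3.77% and 19.3% from hsa-mir-3100 to hsa-mir-3999. Within the set, 93.9% of the 49 names with at most 18 bases and 87.5% of the 24 longer names were at 0 in both libraries, and none of these 73 was detected, since both detected members are outside this split. The part of length in the low detection of the set was not tested. The labels describe a gel fraction chosen for miRNA inserts, and minimum read lengths are not given in the sources used here.

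**Figure D4:**
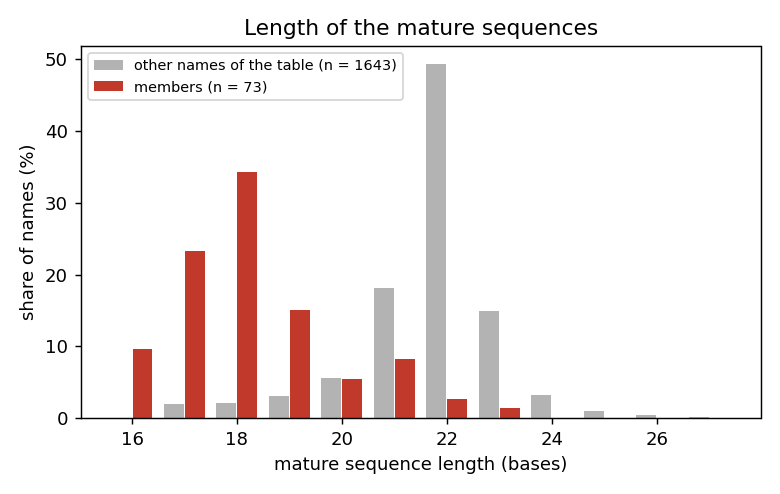
Share of names (y axis, percent) by length of the mature sequence in bases (x axis), for 73 members (red) and 1643 other names of the table (grey). The members centre on 18 bases and the other names on 22.

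All 73 sequences occurred in GRCh37: 53 of them once and 20 at 2 to 10 places, the most being 10 for miR-4261. A read of such length that matches several places cannot be placed by sequence alone. Of the 6 searched members with a count, miR-4284, miR-4306 and miR-4315 had more than 1 match. The search did not cover miR-4326 and miR-4286.

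Several members resemble other, often abundant, miRNAs. Among the 1716 names of the table with a matched sequence, the 73 members included, 5 members shared a run of at least 14 identical bases with another mature name. How often names outside the set share such a run was not counted. In each pair the run begins at the first base of the member. The pairs are shown with the shared run in capitals.
hsa-miR-4306: UGGAGAGAAAGGCAGUa
hsa-miR-185-5p: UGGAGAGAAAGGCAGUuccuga
hsa-miR-4324: CCCUGAGACCCUAACcuuaa
hsa-miR-125b-5p: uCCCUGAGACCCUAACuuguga
hsa-miR-4328: CCAGUUUUCCCAGGAuu
hsa-miR-145-5p: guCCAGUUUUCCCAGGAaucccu
hsa-miR-4291: UUCAGCAGGAACAGcu
hsa-miR-24-3p: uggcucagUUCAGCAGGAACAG
hsa-miR-4269: GCAGGCACAGACAGcccuggc
hsa-miR-214-3p: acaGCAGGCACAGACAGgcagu

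The run is 16 bases long for miR-4306, 15 for miR-4324 and miR-4328, and 14 for miR-4291 and miR-4269. For miR-4306 it starts at base 1 of miR-185-5p, so both have the same seed. In the other 4 pairs it starts at base 2 of miR-125b-5p, base 3 of miR-145-5p, base 9 of miR-24-3p and base 4 of miR-214-3p, so the seeds of these pairs differ.

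In these pairs the counts lay with the longer miRNA, save for 3 counts. Over all 80 members 90% were at 0 in both libraries, so zeros are not shown to be a trait of these pairs. At rank 7, miR-24-3p had 74756 and 82819 counts, and miR-4291 had none in either library. The table listed 22288 and 16939 counts for miR-125b-5p and none for miR-4324. For miR-185-5p there were 7275 and 5990 counts, and for miR-4306, which shares 16 of its 17 bases, 0 and 3. A miRNA known from the mural cells that wrap vessels, miR-145-5p, had 271 and 200 counts and miR-4328 none. In the lowest pair miR-214-3p had 23 and 2 counts and miR-4269 none. Whether the 3 counts of miR-4306 came from its own hairpin, in an intron of CLYBL on chromosome 13 at 100295313 to 100295403 (GRCh37, plus strand), was not tested.

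**Figure D5:**
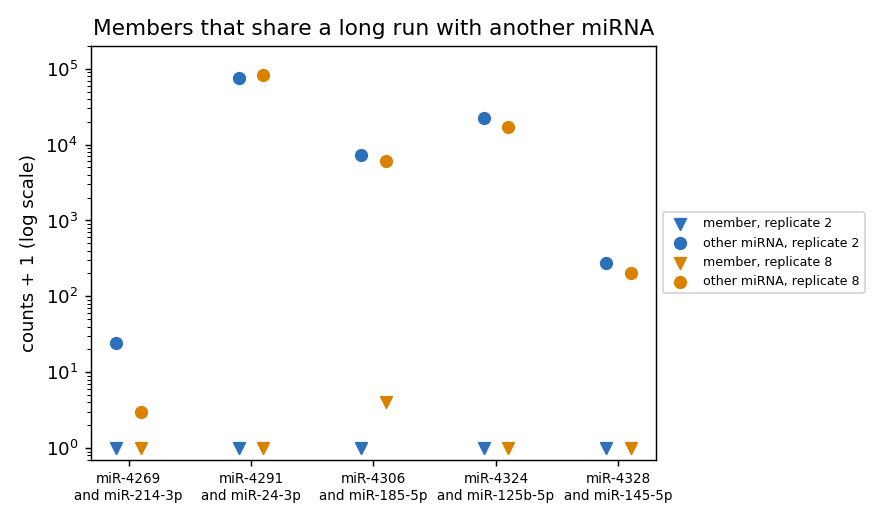
Counts plus 1 (y axis, log scale) of the 5 members that share a run of at least 14 bases with another miRNA (triangles) and of that other miRNA (circles), in replicate 2 (blue) and replicate 8 (orange). The members lie at 0 counts, except miR-4306 with 3 in replicate 8, while their partners reach up to 82819 counts.

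The 73 members had 71 distinct seeds. The only seed held by more than 1 of them joined miR-4265, miR-4296 and miR-4322, all at 0 in both libraries.
hsa-miR-4265: cUGUGGGCucagcucuggg
hsa-miR-4296: aUGUGGGCucaggcuca
hsa-miR-4322: cUGUGGGCucagcgcgugggg

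Seeds were also compared with the rest of the table, because miRNAs with one seed can address the same target sites. Among the names with a matched sequence, the seed of 6 members was also that of a detected miRNA, 10 such miRNAs in all. Sequences were matched for 435 of the 543 detected names, so further shared seeds may be missed. How often names outside the set share a seed with a detected miRNA was not counted, so this is not shown to be a trait of the set. Besides miR-4306 and miR-185-5p, these include members that have the seed of large families. In the following pairs the seed is in capitals.
hsa-miR-4262: gACAUUCAgacuaccug
hsa-miR-181a-5p: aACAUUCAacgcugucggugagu
hsa-miR-4319: uCCCUGAGcaaagccac
hsa-miR-125a-5p: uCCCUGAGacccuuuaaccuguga
hsa-miR-4295: cAGUGCAAuguuuuccuu
hsa-miR-130b-3p: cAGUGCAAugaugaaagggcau

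For this seed group miR-181a-5p had 59634 and 57559 counts and miR-181b-5p 16987 and 15274, and miR-181c-5p 150 and 125, while miR-4262 was at 0 in both libraries. The seed of miR-4319, also at 0, was present in miR-125a-5p with 54135 and 35291 counts and in miR-125b-5p, whose counts are given above. That of miR-4295, at 0 as well, was present in miR-130b-3p with 1185 and 1053 counts and in miR-454-3p with 217 and 296. The other members of this kind, miR-4271 and miR-4309, were at 0, and the detected miRNAs with their seeds, miR-4725-3p and miR-3198, had 31 and 42 and 31 and 25 counts. Of the 6 members with the seed of a detected miRNA, miR-4306 with its 3 counts was the only one with a count. In the whole set of 80 names, 90% were at 0 in both libraries.

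By position, 69 of the 82 hairpins were matched by symbol to the GENCODE annotation on GRCh37. They lay on 21 chromosomes. Of these, 32 were in an intron and 3 in an exon of a gene on the same strand, and 26 of these same-strand hosts were protein-coding. A further 19 lay opposite an intron and 3 opposite an exon, and 12 overlapped no other gene. The exonic hairpins were MIR4260 in LAMB3, a laminin chain gene, MIR4321 in AMH, the gene of anti-Müllerian hormone, and MIR4329 in AMOT, which encodes the angiogenesis-related protein angiomotin. A hairpin was called exonic if any transcript of the gene had an exon there. For MIR4329, 4 AMOT transcripts spanned the hairpin and 1 had an exon there. For MIR4260 and MIR4321 the numbers were 3 and 3 each. All of these exonic hairpins were at 0 in both libraries. Of the 7 matched hairpins with a count, 4 were intronic on the same strand (miR-4326, miR-4301, miR-4306 and miR-4289), 2 were opposite an intron (miR-4286 and miR-4284) and miR-4277, on chromosome 5, overlapped no other gene.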

How the data were processed

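Per the labels' protocols, small RNA libraries were made by adaptor ligation, PCR and gel size selection. The deposited table gives raw read counts and the authors' RPM for each pair of mature miRNA and precursor. The RPM equal the deposited counts divided by 3180045 (replicate 2) and 3205752 (replicate 8). Per the submitters' processing notes, CASAVA 1.9, FastQC, cutadapt, Bowtie 0.12.7 and hg19 were used. The miRNA counter, its rules for reads with several matches and the miRBase release are not given in the sources used here.

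Members were all rows with a precursor from hsa-mir-4251 to hsa-mir-4330. Members and lists were chosen with earlier results of these data known. Where a mature name had several rows, only that with the most counts was kept, and CPM were computed on the totals of the kept rows. A miRNA was detected if each library had 10 or more counts. As there was 1 group of 2 libraries, no test between conditions was possible. The libraries were compared by an exact binomial test (scipy 1.17.1), with 0.5 counts added for log2 ratios. The test was tried on simulated data with counting error only, so its behaviour under further spread between libraries was not examined. Alternatives were the detection threshold, repeated rows, deposited RPM, TMM (edgeR 4.0.16), size factors of DESeq2 1.42.0, the pseudocount, filters on low counts and each library left out. Named were members with at least 10 counts in either library, past the adjusted threshold, with the counts of another name, and the 3 highest undetected ones. Other members with a count, members sharing a run or a seed with another miRNA and hairpins in exons were named after their values were seen. Sequences are from RefSeq (GRCh38.p14), and positions from GENCODE 44 mapped to GRCh37, the build that hg19 is based on. The mitochondrial position is that of the GRCh37 file, and the mitochondrial sequence behind hg19 was not used here. Exact matches were searched on both strands of the chromosomes of GRCh37.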

Additional observations from a re-analysis of the deposited data

How the results depend on the processing

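Over 5 results, 27 values were recomputed, of which 8 moved past a set limit and 19 did not. This limit was 1.5 times for counts, 1 SD between the libraries for levels and shares, and 1 SD over members for the ratio. With 2 libraries, leaving 1 out always moves a mean by less than 1 SD, so levels and shares could not pass the limit there. Those values are among the 19 and show nothing about stability. With at least 1 count in both libraries 4 rows were detected, which follows from the looser threshold. The summed level was 323 CPM with all rows in the total and 321 on the deposited RPM scale, which follows from the larger denominator, and 371 CPM with the detected members only. Leaving out either library only returns the values of the other one. Detection was then 2 rows each time, the summed level 375 or 379 CPM and the share of miR-4326 70.7% or 75%. The number of members that differed between the libraries was 1 in place of 0 with TMM sizes, with DESeq2 size factors and with at least 100 summed counts (exact binomial adjusted p = 0.0459 for miR-4286, over fewer names). With no filter on low counts it was 0 (exact binomial adjusted p = 0.205 for miR-4286), and with all rows tested it was 0 (0.086). Without a filter the median absolute log2 ratio was 0.0034, since 72 members at 0 enter it. No paired analysis was possible because there was 1 group. Depth limits every member except miR-4326 and miR-4286: a count of 0 in a library still allows a level of up to 1.10 CPM.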
